A study of Mus musculus with 2 samples.

Results

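The regions described here are the called peaks of an ATF4 antibody library that lay beside more than 1 gene. A called peak was kept when its summit, the base with the most fragments, was within 1000 bp of a boundary (the first or last base) of at least 2 different protein-coding genes in the RefSeq gene table of GRCm38.p6. This held for 299 of the 7873 peaks in the list. Another 1228 peaks lay at a boundary of 1 gene and 6346 at none, so the shared peaks made up 19.6% of the 1527 peaks at a gene boundary (95% Clopper-Pearson interval 17.6% to 21.7%). The 299 peaks touched 591 genes in 296 different leading pairs, a leading pair being the 2 genes whose boundaries were nearest to the summit. The choice used positions alone, and no value of peak height entered it.

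The peaks come from CUT&Tag, in which an antibody guides a transposase to a DNA-bound protein, so that DNA beside the protein is cut, tagged and sequenced. Libraries were made from primary neurons of the C57BL/6 mouse, from cortex and hippocampus, taken from embryos and kept in culture according to the methods, with 1 library for an ATF4 antibody and 1 for IgG, each from 100000 cells. The deposited peak list belongs to the ATF4 library, the IgG library was not analysed here, and with a single library per antibody there is neither an error between replicates nor a test between conditions. The study asked which genes ATF4 may regulate in neurons after brain haemorrhage, and the sources do not say if the cells of this assay had received hemin, the blood breakdown product it used as a stressor. The labels call the cells primarily neurons, and a list of peaks cannot check this against expressed markers.

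ATF4 is a basic leucine zipper transcription factor whose translation increases in the integrated stress response, for example when the kinase PERK senses unfolded protein in the endoplasmic reticulum. With a partner of the C/EBP family it binds a composite element that joins a C/EBP site to an ATF site, and its known targets include genes of amino acid synthesis and transport, aminoacyl-tRNA synthetases and Ddit3. Mammalian genes often lie head to head, with 2 starts close together and transcription leaving in opposite directions. Such divergent promoters are usually rich in CpG dinucleotides, and many serve housekeeping genes. A factor bound in one cannot be assigned to either gene by position alone.

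Promoters of a few leading pairs are printed here, most of them chosen because they hold a match to an ATF4 motif, which 26 of the 255 shared peaks with promoter sequence had. Each is the RefSeq promoter of GRCm38.p6, from 250 bases before to 50 bases after an annotated start, and is printed 5′ to 3′ on the strand of its gene. Capitals mark matches, on either strand, to the ATF4 composite motif TGATGNAA or to TGANGCAA. The second form was added after the promoters of Bud31 and Hspa14 had been read, and TGATGCAA belongs to both forms. Bud31 is shown for the shared peak with the highest fold enrichment, Zfp672, Hspa14, Yars and Tubb3 as members of the 15 highest shared peaks with a match nearest to the summit (that of Ttc9c, at 296.5 bp, is not printed), Echs1 for the match closest to a summit among peaks of 10 or more fragments, and Ddit3 as a known ATF4 target without a match in this window. The positions are chr5:145140126-145140425 (plus strand) for Bud31, chr11:58330290-58330589 (minus) for Zfp672, chr2:3512765-3513064 (minus) for Hspa14, chr4:129189653-129189952 (plus) for Yars, chr8:123411303-123411602 (plus) for Tubb3, chr7:140116372-140116671 (minus) for Echs1 and chr10:127290543-127290842 (plus) for Ddit3.
Bud31: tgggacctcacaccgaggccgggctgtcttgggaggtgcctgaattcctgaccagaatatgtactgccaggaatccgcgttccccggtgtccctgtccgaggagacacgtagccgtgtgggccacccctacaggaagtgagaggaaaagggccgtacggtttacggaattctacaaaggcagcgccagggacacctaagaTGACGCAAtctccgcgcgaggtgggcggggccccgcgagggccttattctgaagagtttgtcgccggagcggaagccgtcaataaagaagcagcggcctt
Zfp672: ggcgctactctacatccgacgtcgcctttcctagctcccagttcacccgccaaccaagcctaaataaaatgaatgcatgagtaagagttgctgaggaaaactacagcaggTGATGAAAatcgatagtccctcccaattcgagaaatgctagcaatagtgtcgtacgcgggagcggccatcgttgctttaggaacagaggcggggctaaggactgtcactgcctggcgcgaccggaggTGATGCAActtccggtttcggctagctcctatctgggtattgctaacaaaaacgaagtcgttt
Hspa14: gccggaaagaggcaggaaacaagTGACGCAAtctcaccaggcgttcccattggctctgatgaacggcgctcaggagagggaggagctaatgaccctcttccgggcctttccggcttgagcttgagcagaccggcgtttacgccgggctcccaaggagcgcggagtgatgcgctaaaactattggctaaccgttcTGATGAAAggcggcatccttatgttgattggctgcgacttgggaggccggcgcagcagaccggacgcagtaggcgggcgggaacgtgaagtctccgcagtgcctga
Yars: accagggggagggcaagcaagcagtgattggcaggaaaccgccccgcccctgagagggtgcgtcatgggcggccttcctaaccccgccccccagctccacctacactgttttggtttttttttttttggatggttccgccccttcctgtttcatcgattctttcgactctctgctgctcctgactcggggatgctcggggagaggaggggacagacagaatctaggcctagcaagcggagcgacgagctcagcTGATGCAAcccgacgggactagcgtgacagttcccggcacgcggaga
Tubb3: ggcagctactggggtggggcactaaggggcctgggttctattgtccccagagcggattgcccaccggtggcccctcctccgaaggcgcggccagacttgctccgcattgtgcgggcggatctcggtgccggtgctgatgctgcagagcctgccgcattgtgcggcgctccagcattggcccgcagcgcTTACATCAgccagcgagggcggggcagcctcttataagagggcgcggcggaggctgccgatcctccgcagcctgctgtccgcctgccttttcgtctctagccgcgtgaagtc
Echs1: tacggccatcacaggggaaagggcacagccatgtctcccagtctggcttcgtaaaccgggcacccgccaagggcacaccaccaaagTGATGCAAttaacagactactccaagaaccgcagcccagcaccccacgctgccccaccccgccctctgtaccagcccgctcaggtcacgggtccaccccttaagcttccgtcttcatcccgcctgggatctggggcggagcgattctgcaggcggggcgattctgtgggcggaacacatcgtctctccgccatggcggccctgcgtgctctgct
Ddit3: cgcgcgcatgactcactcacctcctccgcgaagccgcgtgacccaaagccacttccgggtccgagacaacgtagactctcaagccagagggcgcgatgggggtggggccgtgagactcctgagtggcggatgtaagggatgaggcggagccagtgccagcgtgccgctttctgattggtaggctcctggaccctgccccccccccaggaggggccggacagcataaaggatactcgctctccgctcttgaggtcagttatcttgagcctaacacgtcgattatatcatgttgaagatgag

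In the Bud31 promoter the letters TGACGCAA began 50 bases before the start, with their centre 20.5 bp from the summit. The Hspa14 promoter held the same 8 letters 46.5 bp from its summit and a second match, TGATGAAA, at 124.5 bp. Zfp672 carried 2 matches, the nearer at 80.5 bp. The match of Tubb3, on the other strand, lay at 52.5 bp, that of Echs1 at 8.5 bp and that of Yars, just after an annotated start, at 126.5 bp.

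The rule itself placed both boundaries within 1000 bp of the summit, and so at most 2000 bp from each other. The nearer boundary was a median of 135 bp from the summit (range 3 to 875 bp) and the second a median of 306 bp (21 to 993 bp). The nearer boundary was within 100 bp in 110 peaks (36.8%), and the second was within 200 bp in 83 (27.8%). The median spacing between the 2 boundaries was 192 bp (quartiles 70.5 and 396.5, range 0 to 1449). In 52 peaks (17.4%) the called interval covered both boundaries.

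In 208 of the 299 peaks (69.6%) the 2 genes were apart, in 86 their intervals overlapped and in 5 a gene lay within its neighbour. Where they overlapped or were nested, the shared stretch had a median of 254 bp and ran from 5 to 15467 bp. It was up to 100 bp in 24 pairs, over 100 and up to 500 bp in 40, over 500 and up to 1000 bp in 18 and longer in 9. The longest was that of Nup62, which encodes a nuclear pore protein, and Il4i1b, an amino acid oxidase gene. The smallest spacing was 0 bp, in Gm21992/Rbm14 and Htd2/Rpp14, pairs annotated with a common start. In such pairs a peak cannot be separated between the genes at all.

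The summit itself lay between the 2 boundaries in 72 peaks (24.1%), inside 1 of the genes in 195 (65.2%), inside both in 30 (10.0%) and beside both in 2. The rule has a limit at 1000 bp, and the peaks nearest to it were Cd37/Slc6a16 (second boundary at 993 bp, fold enrichment 3.41) and Rpl7/Rdh10 (989 bp, 9.19) inside, and Pdia3/Catsper2 (1004 bp, 4.20) and Pkp4/Ccdc148 (1007 bp, 4.39) outside.

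**Figure D1:**
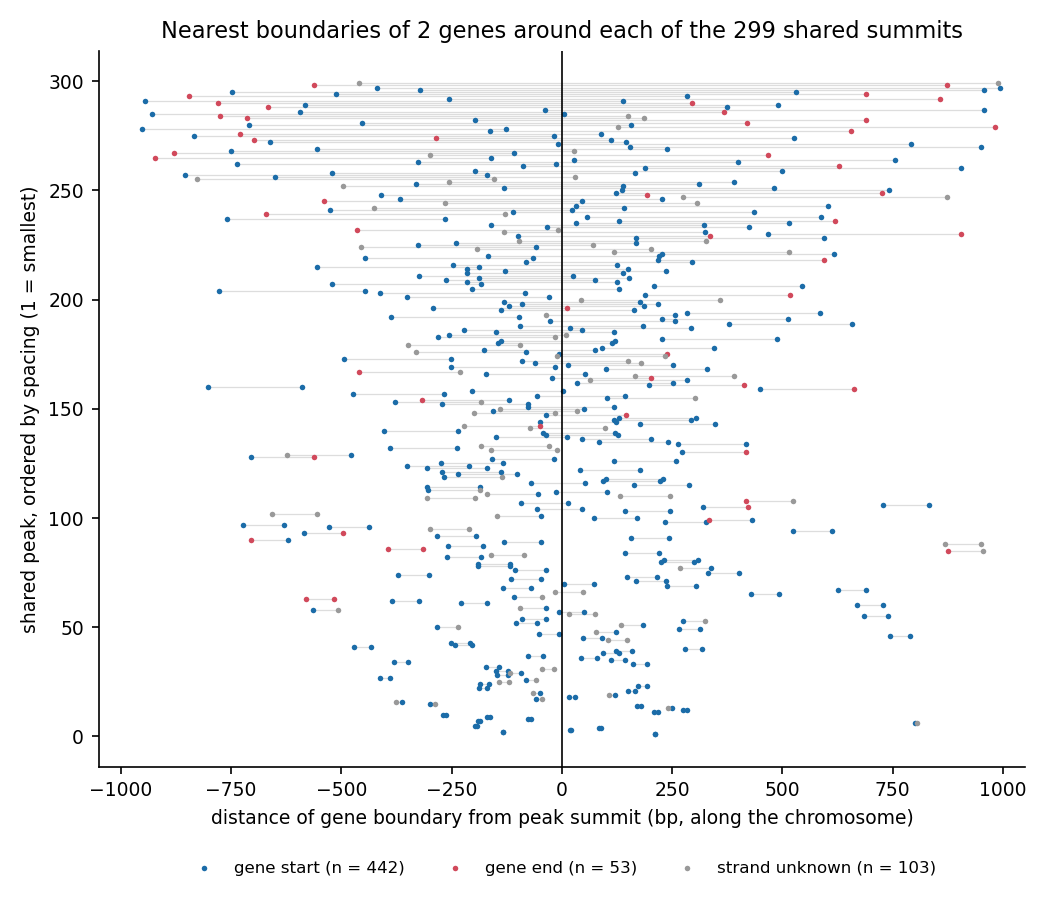
Distance in bp from the summit (vertical line at 0) to the nearest boundary of each gene of the leading pair, for the 299 shared peaks ordered by spacing from bottom to top, joined by a grey line, with gene starts in blue, 3′ ends in red and boundaries of genes without a known strand in grey. Starts (442 of the boundaries) gather within about 300 bp of the summit, and most of the 53 3′ ends lie in the upper rows, where the 2 boundaries are far apart.

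The strand of a gene, and so which boundary is its start, was known for both genes of 222 shared peaks and was missing for at least 1 gene in the other 77. Of the 222, 183 (82.4%, 95% interval 76.8% to 87.2%) lay between or beside 2 gene starts. In 120 of these the genes were divergent and apart, in 57 they were divergent with overlapping first parts, and in 6 both starts were on the same strand. A start and a 3′ end were nearest in 35 peaks (15.8%), with the start as the nearer boundary in 27 of them. Only 4 peaks (1.80%) had the 3′ ends of both genes nearest, Atp6v1e1/Slc25a18, Map1lc3b/Zcchc14, Cox6b2/Fam71e2 and Alg3/Vwa5b2. Their fold enrichments were 6.82, 4.33, 3.68 and 3.46 on 7, 4, 3 and 3 fragments.

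In the 120 divergent pairs that were apart, the starts were a median of 134.5 bp from each other, and the summit lay between them in 35 (29.2%). A summit could qualify anywhere within 1000 bp of both starts, a stretch that at this median spacing lay mostly outside the space between them. The share expected from position alone was not worked out. By peak height, the share of 2 starts was 88.9% of 45 peaks with 3 fragments at the summit, 82.1% of 67 with 4 to 5, 76.5% of 68 with 6 to 9 and 85.7% of 42 with 10 or more, and the 4 exact intervals overlapped. Among the peaks at 1 gene with a known strand, 885 of 969 (91.3%) were at a start.

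The share of neighbouring genes that carried a shared peak depended on which boundaries faced each other. The annotation held 4809 pairs of protein-coding genes with boundaries at most 2000 bp apart, and 306 of them (6.36%) had a shared peak, more than the leading pairs because a peak with 3 genes counts for several pairs. Pairs are classed here by the boundaries nearest to each other, not to the summit, so the counts differ from those above. Where 2 starts were nearest to each other, 185 of 1048 pairs had a shared peak (17.7%, 95% interval 15.4% to 20.1%). The share was 4.0% of 975 pairs with a start and a 3′ end (2.86% to 5.43%) and 0.272% of 1105 pairs in which both were 3′ ends (0.0560% to 0.791%), and these 3 intervals do not overlap. Divergent pairs that were apart (18.4% of 645), divergent pairs that overlapped (16.4% of 360) and 2 starts on 1 strand (16.3% of 43) had shares whose intervals overlap. Pairs without a known strand had a peak in 4.70% of 1681.

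Among pairs of 2 starts, the share was 17.7% at a spacing of up to 200 bp, 23.2% over 200 and up to 500 bp, 20.5% over 500 and up to 1000 bp and 2.68% over 1000 and up to 2000 bp. The stretch within 1000 bp of both starts came to 62.0 kb over the 112 pairs of the last class, 3 of which had a peak, and to 1105 kb over the 581 pairs of the first class, 103 of which had a peak. Per length, the 5.82 Mb within 1000 bp of 2 or more genes held 51.4 peaks per Mb (95% Poisson interval 45.7 to 57.6) and the 73.4 Mb within 1000 bp of 1 gene held 16.7 (15.8 to 17.7).

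Starts were also counted singly. A start with another gene's boundary within 2000 bp had a summit within 1000 bp in 516 of 3420 cases (15.1%, 13.9% to 16.3%), and a start with no such neighbour in 791 of 14071 (5.62%, 5.25% to 6.02%). A peak at a neighbour's start also counts for the first start here, so part of this difference is built in. For 3′ ends the shares were 1.94% of 3662 with a neighbour and 0.557% of 13829 without. Promoters near shared peaks had a median GC content of 61.3% and 23 CpG dinucleotides in 300 bases, those at peaks of 1 gene 63.0% and 23, and all annotated promoters 56.3% and 13. The part of base composition, and of the genes' expression, in the difference between starts was not tested.

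**Figure D2:**
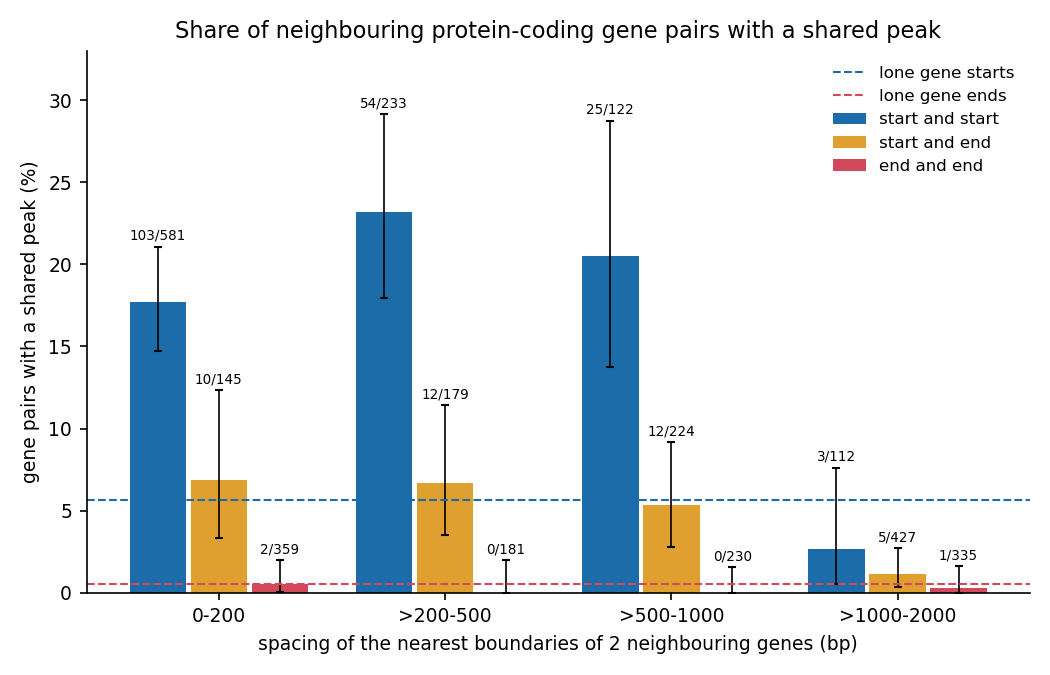
Percentage of neighbouring protein-coding gene pairs with a shared peak, by the spacing of their nearest boundaries in bp and by whether these are 2 starts (blue), a start and a 3′ end (orange) or both 3′ ends (red), with 95% Clopper-Pearson intervals and the number of pairs above each bar. Dashed lines mark the shares of lone starts (5.62%) and lone 3′ ends (0.557%) with a summit within 1000 bp. Pairs of starts up to 1000 bp apart stand at 17.7% to 23.2%. Since a pair has 2 starts and the line is for 1, the line is not the level expected without an effect of pairing.

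The height of a peak is given here as the fold enrichment of the deposited list and as the number of fragments at the summit. Fold enrichment is the ratio of fragments at the summit to the background that the peak caller estimated, with 1 added to each. The number of fragments was solved from the fold enrichment and the p-value. Shared peaks had a median fold enrichment of 5.27 (quartiles 4.26 and 6.86, range 3.31 to 21.7), against 4.97 for peaks at 1 gene and 4.20 for peaks at no gene boundary. Their median width was 274 bp (165 to 1664), against 246 and 202 bp. 151 of the 299 (50.5%, 44.7% to 56.3%) had 6 or more fragments, against 24.3% of all peaks, 43.5% of peaks at 1 gene (40.7% to 46.3%) and 19.3% of peaks at no gene boundary. A q-value with a -log10 of at least 5 was reached by 116 (38.8%), against 18.3% of all peaks.

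Because shared peaks were mostly at starts, the closest comparison is with the 885 peaks at the start of 1 gene. These had a median fold enrichment of 5.12, a median width of 260 bp and 6 or more fragments in 47.9% (44.6% to 51.3%), an interval that overlaps that of the shared peaks. No shared peak had over 74 fragments. A height of 100 or more was reached by 5 of 1228 peaks at 1 gene, 28 of 6346 at none and 33 of all 7873. With so few, 0 of 299 shared peaks does not set them apart. At 20 or more fragments stood 14 shared peaks (4.68%), against 5.38% of peaks at 1 gene and 2.35% of all peaks. Among the 885 peaks at the start of 1 gene this share was 6.2%. At the low end, 58 shared peaks (19.4%) rested on 3 fragments, against 40.95% of all peaks and 22.2% of peaks at 1 gene. The share was 19.4% of the 885 peaks at the start of 1 gene as well. For 3 fragments the exact Poisson interval is 0.619 to 8.77. A -log10 q under 2 was found in 39 shared peaks (13.0%), and the share over all peaks is not given here.

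Within the shared peaks, height varied with the place of the summit. The 72 peaks between the 2 boundaries had a median fold enrichment of 5.93 and 6 or more fragments in 66.7% (54.6% to 77.3%), those inside 1 gene 5.19 and 47.7% (40.5% to 55.0%), and those inside both genes 4.65 and 30.0% (14.7% to 49.4%). The intervals of the first and last groups do not overlap. By arrangement, the share with 6 or more fragments was 53.3% in divergent pairs apart, 36.8% in divergent overlapping pairs and 60.0% in pairs of a start and a 3′ end, with overlapping intervals.

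**Figure D3:**
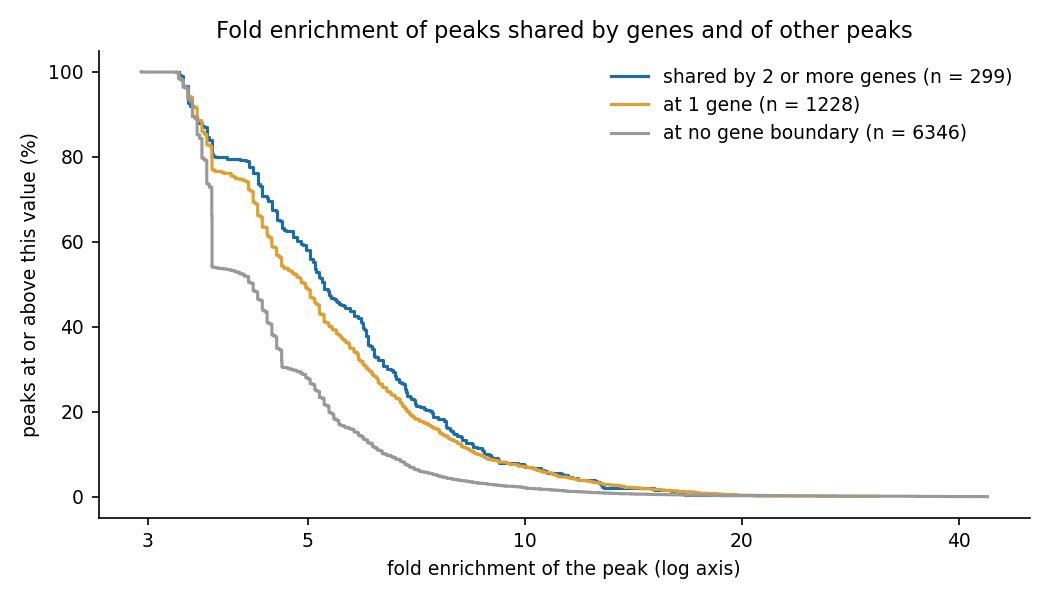
Percentage of peaks at or above each fold enrichment (log axis) for the 299 shared peaks (blue), the 1228 peaks at 1 gene (orange) and the 6346 peaks at no gene boundary (grey). The shared peaks lie above the other curves between fold enrichments of about 4 and 9, and the blue and orange curves run together beyond it.

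The shared peak with the highest fold enrichment lay between Bud31, which encodes a spliceosome-associated protein, and Pdap1, at chr5:145139868-145140588. The enrichment was 21.7-fold with a q-value of 3.28e-76, on 74 fragments (95% Poisson interval 58.1 to 92.9). Its summit was 26 bp from the start of Bud31 and 325 bp from that of Pdap1, and it ranked 18th among all peaks by fold enrichment. Srgap2, which encodes a GTPase-activating protein of neuronal migration and spine maturation, overlaps Fam72a by 934 bp. At chr1:131527182-131527803 they shared a peak of 44 fragments (32.0 to 59.1) that was enriched 16.7-fold (q = 6.51e-42), with the summit 5 bp from the start of Srgap2 and 928 bp from that of Fam72a.

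Mrpl54, of the large subunit of the mitochondrial ribosome, and Apba3, an adaptor that binds the amyloid precursor protein, shared the peak chr10:81266434-81266966 (fold enrichment 16.6, q = 5.51e-44, 47 fragments), and the boundaries of the 2 genes were 9 bp apart. The peak of Sh3bp5l and the zinc finger gene Zfp672 at chr11:58330310-58330741 was enriched 16.4-fold (q = 1.89e-35) on 36 fragments, with the summit between starts at 151 and 188 bp. 9130023H24Rik and Armc5 followed with a fold enrichment of 16.0 and 59 fragments (44.9 to 76.1) on chromosome 7.

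Cdnf, a neurotrophic factor of the endoplasmic reticulum, and Hspa14, a ribosome-associated chaperone of the Hsp70 family, shared the peak chr2:3512833-3513249 (fold enrichment 12.8, q = 2.34e-22, 25 fragments), with its summit between starts at 74 and 177 bp.

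Serpini1, which encodes neuroserpin, a protease inhibitor secreted by neurons, and Pdcd10, a gene of cerebral cavernous malformations, stood at 12.7 on 28 fragments. Their starts were 641 bp apart and the summit was near the middle, 310 and 331 bp from them. Tubb3, the tubulin used as a neuronal marker, and the 3′ end of Mc1r, the melanocortin receptor of pigment cells, flanked the peak chr8:123411118-123411914, which was enriched 11.5-fold (q = 5.20e-30) on 41 fragments (29.4 to 55.6). The summit was 111 bp from the start of Tubb3 and 698 bp from the end of Mc1r.

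Of the remaining pairs among the 15 highest, those given here had fold enrichments of 11.6 to 12.9. They were Casc1/Etfrf1 (12.9, 19 fragments), with a regulator of electron transfer flavoprotein, and Trmt10a/Mttp (12.8, 18 fragments), a tRNA methyltransferase beside the lipid transfer protein of lipoprotein assembly. Tnks1bp1/Ssrp1 (12.6, 28 fragments) includes a subunit of the histone chaperone FACT. Hnrnpul2/Ttc9c (12.5, 36 fragments), Prepl/Camkmt (11.9, 17 fragments) and Yars/S100pbp (11.6, 64 fragments) complete the group. Of the 14 shared peaks with 20 or more fragments, only Ddit3/Mbd6 and Akt1s1/Tbc1d17 were outside these 15. Akt1s1/Tbc1d17, with 35 fragments, was named after its value was seen.

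**Figure D4:**
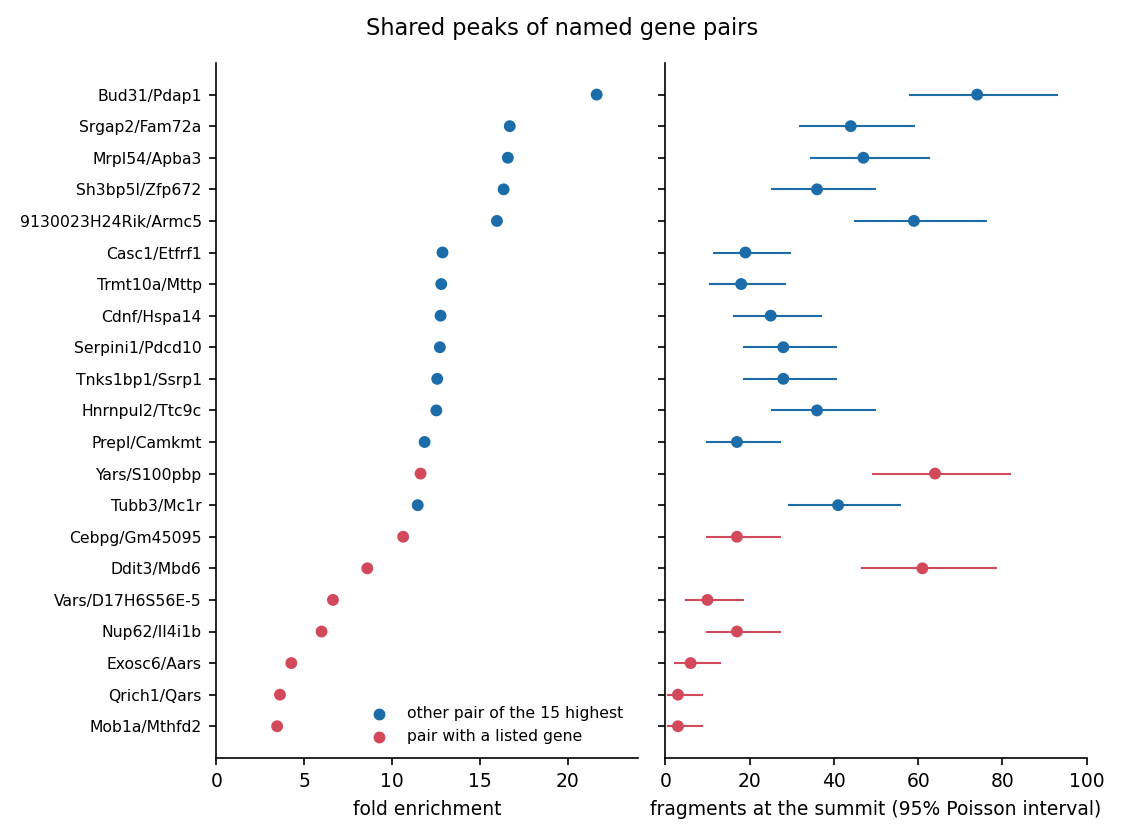
Fold enrichment (left) and fragments at the summit with 95% Poisson intervals (right) of the shared peaks of named pairs, with 14 of the 15 highest fold enrichments shown and pairs outside the lists in blue and pairs that hold a gene of the synthetase, ATF4 response, serine and folate or amino acid lists in red (Yars/S100pbp is in both sets and Nup62/Il4i1b also has Atf5). Ddit3/Mbd6, with 61 fragments, has a fold enrichment of 8.60, below pairs with far fewer fragments.

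Genes of the ATF4 programme were read from lists written by hand. Over all protein-coding genes, 591 of 21883 (2.7%) were at a shared peak, or 8.39% of the 7047 genes with a neighbour's boundary within 2000 bp. Of 34 ATF4 response genes, 9 had such a neighbour and 4 were at a shared peak, and another 20 were at a peak of 1 gene only. Of 20 cytosolic aminoacyl-tRNA synthetase genes, 8 had a neighbour and 4 were at a shared peak, with 9 more at a peak of 1 gene. The serine and folate list had 3 of 26 (12 with a neighbour) and the amino acid biosynthesis list 0 of 25 (7 with a neighbour, 11 at a peak of 1 gene). These counts are few and describe the lists only.

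Ddit3, which encodes the stress-induced factor CHOP, overlaps its divergent neighbour Mbd6 by 77 bp. Their peak, chr10:127290205-127291188, was 984 bp wide and enriched 8.60-fold (q = 1.70e-34) on 61 fragments (46.7 to 78.4). Its summit was 232 and 308 bp from the starts. Cebpg, a dimer partner of ATF4, overlapped the gene model Gm45095 by 1084 bp, and the summit lay inside both genes, 138 and 945 bp from their starts. That peak, chr7:35055865-35056633, was enriched 10.6-fold (q = 6.17e-15) on 17 fragments (9.90 to 27.2). Atf5, a close relative of ATF4, was the third gene of the Nup62/Il4i1b peak (chr7:44815931-44816629, fold enrichment 5.99, q = 1.09e-07, 17 fragments). Mthfd2, the mitochondrial folate dehydrogenase, lay head to head with Mob1a with starts 23 bp apart, and this peak had a fold enrichment of 3.46 (q = 0.0152) on 3 fragments (0.619 to 8.77).

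Among the synthetases, Yars, for tyrosine, and S100pbp had the widest interval of the 15 highest peaks, 1470 bp at chr4:129189371-129190840 (fold enrichment 11.6, q = 3.07e-45, 64 fragments, 49.3 to 81.7). The starts were 69 bp apart. The other 3 were lower. Vars, for valine, with D17H6S56E-5 had a fold enrichment of 6.64 (q = 1.50e-06) on 10 fragments, and Aars, for alanine, 4.27 (q = 0.00450) on 6 fragments. Qars, for glutamine, had 3.62 (q = 0.00450) on 3 fragments. In the last pairs the nearest boundary belonged to the start of Exosc6, an exosome subunit, at 109 bp, and of Qrich1, at 374 bp, and the synthetase gene contributed its 3′ end at 879 and 667 bp.

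Other lists were read in the same way. DNA repair genes were at a shared peak in 8 of 51 cases, 35 of which had a neighbour, and examples were Mutyh with Toe1 (fold enrichment 7.94, 9 fragments) and Brca1 with the autophagy receptor gene Nbr1 (6.35, 7 fragments). Respiratory chain and ATP synthase genes had 9 of 84 (54 with a neighbour), led by Ndufb5, whose start faces that of the mitochondrial ribosomal gene Mrpl47 (9.78, 13 fragments), and Uqcrq with Gdf9 (7.80, 13 fragments). Mitochondrial ribosomal protein genes had 5 of 78, cytosolic ones 5 of 81 and translation factors 4 of 62. Of the members with a neighbour these were 10.0% of 50, 12.2% of 41 and 12.9% of 31, beside 8.39% over all genes with a neighbour, and all of these translation factor peaks had 3 to 5 fragments. Autophagy genes had 4 of 35 (19 with a neighbour). Synaptic and neuronal genes had 1 of 33, Tubb3, or 8.33% of the 12 with a neighbour, against 8.39% over all genes with a neighbour.

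5 peaks touched 3 genes: Nup62/Il4i1b/Atf5, Stx5a/1700092M07Rik/Wdr74, Psme3ip1/Rspry1/LOC115486880, Cyb5d1/Naa38/Tmem88 and Bysl/Gm20517/Med20. Apart from the first, with 17 fragments, they held 3 to 5 fragments. In 20 shared peaks a gene carried only a model or clone number, so that the second gene is less certain there.

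The ATF4 motif was looked for in the promoters of the paired genes. 255 shared peaks had at least 1 gene start within 1000 bp whose promoter sequence was given, and in 126 a promoter window held the summit. TGATGNAA, on either strand, was in a promoter of 11 of the 255 (4.31%, 2.17% to 7.59%). Per promoter, 15 of 489 at shared peaks held it (3.07%, 1.73% to 5.01%), against 3.6% of all 21262 promoters of the same length and 4.95% of 969 at peaks of 1 gene (3.68% to 6.51%). Over all shared peaks, then, the interval held the share of all promoters. The promoters are not independent, since 1 peak can bring several and the windows of nearby starts can overlap. A single site can thus count more than once, and the intervals per promoter, here and below, are too narrow. In pairs of 2 starts, TGATGNAA was in 7 of 185 pairs with a shared peak (3.78%, 1.53% to 7.64%) and in 26 of 857 without (3.03%, 1.99% to 4.41%).

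The share with a match was greatest among the high peaks, although the counts are small and the intervals of the 4 classes overlap. A match was found in 0 of 49 shared peaks with 3 fragments (upper limit 7.25%), 2 of 75 with 4 to 5, 3 of 82 with 6 to 9 and 6 of 49 with 10 or more (12.2%, 4.63% to 24.8%). At peaks of 1 gene the share was 0.541% of promoters at 3 fragments and 13.0% at 10 or more (8.61% to 18.6%). In the 6 high peaks the match was a median of 81.0 bp from the summit (8.5 to 126.5 bp), and in the other 5 a median of 296.5 bp (120.5 to 995.5 bp), ranges that overlap.

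The 6 high peaks were Sh3bp5l/Zfp672, Cdnf/Hspa14, Yars/S100pbp, Tubb3/Mc1r, Echs1/Paox and Grk4/Nop14, and their promoters, apart from the last, are printed above. Echs1 encodes a mitochondrial enzyme of fatty acid oxidation and Nop14 a ribosome biogenesis factor. The others were Vrk3/Zfp473, Esrra/Catsperz, Cbx3/Hnrnpa2b1, Alkbh2/Ung and Zfp131/Gm46390. Pairs in these 2 groups that are not among the 15 highest are named because they hold the motif, outside the naming rule and after their values were seen.

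The form TGANGCAA was in a promoter of 21 of the 255 shared peaks (8.24%, 5.17% to 12.3%), and of 19 of 253 (7.51%) without the 2 pairs whose sequences had prompted the search. Per promoter, 26 of 489 at shared peaks held it (5.32%, 3.502% to 7.69%), against 3.48% of all promoters and 7.53% of 969 at peaks of 1 gene (5.95% to 9.38%). By height the counts were 1 of 49, 5 of 75, 7 of 82 and 8 of 49, the last being 16.3% (7.32% to 29.7%). The match was within 100 bp of the summit in 5 of these last 8 peaks and in 5 of the 13 lower ones. The 8 include the 2 pairs that prompted the search, Bud31/Pdap1 (20.5 bp) and Cdnf/Hspa14 (46.5 bp). In pairs of 2 starts the form was in 14 of 185 pairs with a shared peak (7.57%, 4.20% to 12.4%) and in 31 of 857 without (3.62%, 2.47% to 5.10%). The same 2 pairs are among these 14. The 2 forms together were found in 26 of the 255 peaks and both in 6. Since the second form was chosen after sequences had been read, these shares are a description.

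The cyclic AMP response element TGACGTCA, a site of other ATF and CREB proteins, was searched as well. It was in a promoter of 16 of the 255 peaks (6.27%, 3.63% to 9.99%), and in 5 of 49, 5 of 75, 5 of 82 and 1 of 49 peaks by rising number of fragments. Per promoter, 28 of 489 at shared peaks held it (5.73%, 3.84% to 8.17%), against 2.23% of all promoters and 4.13% of 969 at peaks of 1 gene (2.97% to 5.58%). In pairs of 2 starts it was in 10 of 185 pairs with a shared peak (5.41%, 2.62% to 9.72%) and in 35 of 857 without (4.08%, 2.86% to 5.63%). A match is only a run of letters in a window of 300 bases, and the rest of the peak was not searched because no genome sequence was used here.

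**Figure D5:**
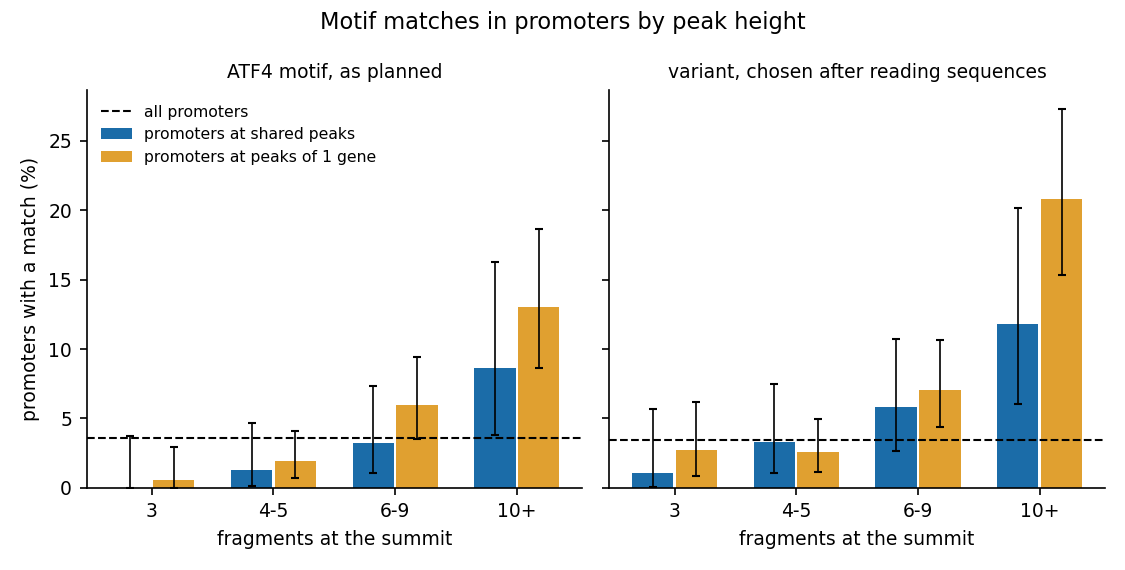
Percentage of promoters with a match to the ATF4 composite motif (left) and to the variant added after sequences were read (right), by the number of fragments at the summit, for promoters at shared peaks (blue) and at peaks of 1 gene (orange), with 95% Clopper-Pearson intervals and the level of all promoters (dashed). On the left the shared promoters go from 0 of 96 at 3 fragments to 8.60% of 93 at 10 or more, and the overlap of the blue and orange intervals is wide in every class. Promoters at 1 peak can share a site, so these intervals are too narrow.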

How the data were processed

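ATF4 CUT&Tag was measured in 1 library of primary neurons, with the IgG library left out as not analysed here. The submitters' processing notes name FastQC, BWA, MACS2 2.1.2, deepTools and the mm10 build. The authors deposited called peaks with a fold enrichment (a ratio over the estimated background), -log10 p-values and q-values, a display score that was not used for results, and positions. Whether IgG entered peak calling is not given in the sources used here, so folds are not read here as enrichment over IgG. The smallest -log10 q was 1.32. The total depth of the library was not used here, and the fragments at a summit stand in for it.

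Summits were joined to 21883 protein-coding genes of the RefSeq table of GRCm38.p6, the assembly that mm10 names, on 21 chromosomes. The strand came from the RefSeq promoter table, which held 21262 promoters for 17491 of these genes and none on chromosome 18, where 3 shared peaks lie.

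Fragments were solved from fold and p-value by the formulas of MACS2, fold being fragments plus 1 over background plus 1 and p a Poisson upper tail. A whole number met the -log10 p within 0.001 in all 7873 peaks. If single reads were called, the numbers are reads. Intervals (95%, Clopper-Pearson for shares and exact Poisson for counts) cover counting error alone. Any PCR copies of a molecule that the peak calling kept were counted too. Peaks are no replicates, so no test was run.

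Named are the 15 shared peaks with the highest fold, pairs with a gene of the synthetase, ATF4 response, serine and folate or amino acid lists, the peaks with the most genes (5 tied), the 2 on each side of the limit, the smallest spacing and the longest overlap, and at most 4 examples of other lists. 3 pairs that this rule names are not reported here. The members and the 11 lists were chosen with earlier results of these data known. Alternatives were windows of 500 and 2000 bp, a -log10 q of at least 5, the whole peak in place of the summit, all 49939 annotated genes, pairs that do not overlap and other motifs. The scripts were tested on simulated data. The computations ran in Python 3.11.15 with pandas 2.3.3, numpy 2.4.6 and scipy 1.17.1, and the plots in matplotlib 3.10.9.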

Additional observations from a re-analysis of the deposited data

How the results depend on the processing

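Of 44 values under alternatives, 33 moved by less than the counting interval or, for the number of peaks, by less than 1.5 times. The number of shared peaks was 213 with a 500 bp window, 422 with 2000 bp and 318 with the whole peak in place of the summit, but 525 when all annotated genes were used, which adds non-coding genes and models, and 116 with a -log10 q of at least 5. That last filter selects on height, and under it the median fold enrichment was 7.46, the median width 395 bp, the share with 6 or more fragments 100% and the share of neighbouring pairs with a peak 2.45%. The latter was 4.75% with all annotated genes. The share of shared peaks with 2 starts as the nearest boundaries was 91.5% with a 500 bp window and 69.5% with 2000 bp. The cause was not tested. Under the other alternatives this share lay between 78.4% and 85.5%. The motif share was 1.96% for TGATGCAA alone and 8.24% for TGANGCAA, a form chosen after seeing the data. The share of neighbouring pairs was not computed for the whole peak. No paired analysis was possible because each antibody had 1 library and no result came from a test. The 58 shared peaks of 3 fragments carry the widest counting error relative to their count.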
